A study of Rattus rattus with 8 samples.

Results

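The proteasome genes of rat colonic epithelium were taken as the rows whose symbol begins with Psma, Psmb, Psmc, Psmd, Psme, Psmf or Psmg followed by a digit. There were 47 such genes among the 11762 listed. Of these, 46 encode subunits, activators, an inhibitor or assembly helpers of the proteasome. The remaining symbol, Psmc3ip, matches the letters only and names a partner protein of a subunit that is known from meiotic recombination. Psma8 and Psmb11, the alpha subunit of testis and the catalytic subunit of the thymus, were not analysed here.

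RNA came from epithelium that had been shaken off the proximal colon after treatment with a chelating agent. There were 4 libraries of the Wistar-Kyoto rat (WKY) and 4 of the spontaneously hypertensive rat (SHR), an inbred strain that develops high blood pressure with age and for which WKY is the usual normotensive control. Neither group carries a named treatment or engineered allele, and no source used here gives age or sex. Replicates are numbered 1 to 4 in each strain, but no label ties a library to its own rat. The p-values therefore reflect library-to-library spread, part of which may be technical.

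The proteasome degrades proteins that have been tagged with ubiquitin. Its 20S core is a barrel of alpha and beta rings, in which Psmb6, Psmb7 and Psmb5 carry the caspase-like, trypsin-like and chymotrypsin-like sites. The 19S cap binds tagged proteins, removes the ubiquitin and unfolds the chain. Interferon gamma induces Psmb9, Psmb10 and Psmb8, which replace Psmb6, Psmb7 and Psmb5 in newly built cores and give the immunoproteasome. Its peptides are carried by the Tap1 and Tap2 transporter to class I histocompatibility molecules. Intestinal epithelium is known to contain the immunoproteasome and to raise it in inflammation.

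Values are FPKM, fragment counts scaled by transcript length and library size, a level per length that can be compared between genes as far as the transcript length used is right. The reads behind a value are unknown. FPKM summed to between 882295 and 1066833 per library, and 10708 to 11124 genes reached 1 FPKM. On the first principal component WKY ran from -25.77 to -17.12 and SHR from 19.66 to 27.65. The epithelial label was checked against its markers, of which 10 of 11 were listed. Epcam, a surface protein of epithelial cells, had a mean of 1616 ± 46.6 FPKM among WKY libraries and 1585 ± 83.8 FPKM among SHR libraries (SD, n = 4 each). None of 5 B cell and plasma cell markers was analysed here.

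All 47 genes were above 0 in every library and passed the filter of 1 FPKM in 4 libraries. Across both strains the mean levels ran from 255.8 FPKM for Psma2, in the alpha ring, down to 6.46 FPKM for Psmd10, which helps to assemble the base of the cap, and 2.97 FPKM for Psmc3ip. The 14 alpha and beta subunits of the standard core had a median of 130.1 FPKM. For the 17 subunits of the 19S cap that fit the rule the median was 59.9 FPKM. The 4 chaperones of core assembly had a median of 21.1 FPKM. An effective length was computed from the authors' deposited mean CPM and these FPKM. It was 2945 bases for Psma3 and 633 to 957 bases for the other alpha genes, and Psma3 had the lowest level of that ring at 47.4 FPKM. That rank rests on the length. The mean CPM of Psma3, 155.1 in WKY and 124.1 in SHR, was above that of Psma1, Psma4, Psma5 and Psma6 and below that of Psma2 and Psma7. The level of Psmd10 rests on an effective length of 285 bases.

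The strains were compared gene by gene with limma on log2(FPKM + 1) over 11069 genes, with Benjamini-Hochberg adjustment over all of them. Among the 47 genes 5 were lower in SHR and 0 higher at an adjusted p under 0.05, where 7.48% of all tested genes were lower and 3.40% higher. The share of members called lower was thus near that of all genes. The 5 were the immunoproteasome subunit Psmb9, both subunits of its activator, Psme1 and Psme2, the alpha subunit Psma4 and the assembly chaperone Psmg2. At an unadjusted p under 0.05, 22 members were lower and 0 higher, where 18.4% of all tested genes were lower and 9.01% higher. The authors' deposited table gives a q-value under 0.05 to the same 5 members, all lower, beside 9.59% of all its genes that were lower and 5.74% that were higher by that rule. After quantile normalization, or with the median gene of every library set to the same level, 2 of the 5 passed, Psmb9 and Psme1. Over all tested genes these scalings gave 644 lower and 642 higher, or 714 lower and 541 higher, against 828 lower and 376 higher as deposited.

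The log2 fold changes of the members lay mostly on one side of 0. They were negative for 44 of 47, where 60.9% of all tested genes were negative. Their median was -0.27 and that of all tested genes -0.07. After quantile normalization the medians were -0.19 and 0.00, and 43 of 47 members were negative. Every SHR value lay below every WKY value for 5 members, Psmb9, Psme1, Psme2, Psmg2 and Psmb3, beside 10.8% of all tested genes.

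**Figure D1:**
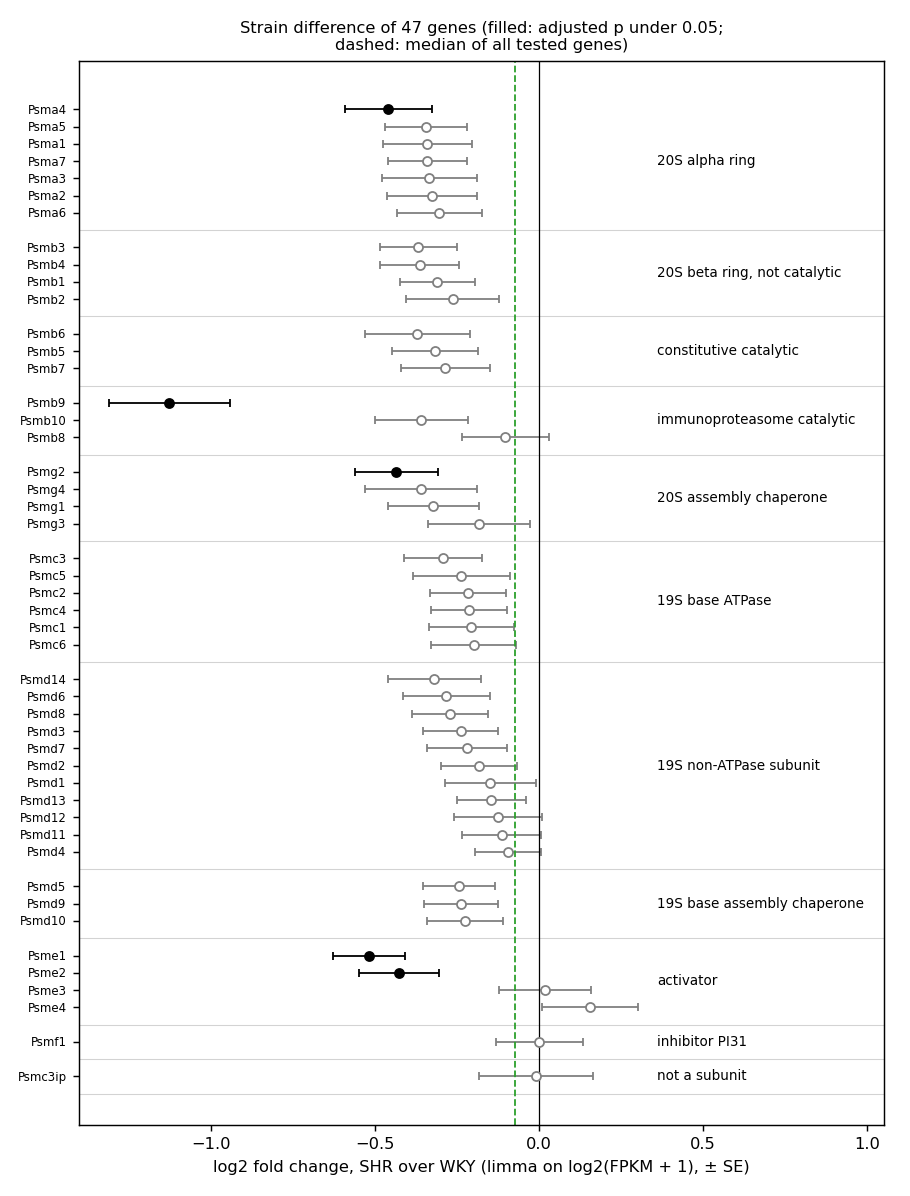
Log2 fold change of SHR over WKY for each of the 47 genes, grouped by role, with limma's standard error. Filled points are the 5 genes with an adjusted p under 0.05, the solid line is 0 and the dashed line the median of all tested genes at -0.07. Psmb9 lies farthest from 0, at -1.13.

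Psmb9 (ENSRNOG00000000459), the subunit that replaces Psmb6 at the caspase-like site, had the largest difference of the 47 genes. In WKY replicates 1 to 4 it was at 163.98, 214.8, 102.64 and 158.54 FPKM. The SHR replicates 1 to 4 were at 79.57, 70.99, 67.09 and 64.6 FPKM. The SHR libraries lay close together, and even the lowest WKY library, replicate 3, was above all of them. The log2 fold change was -1.13 ± 0.18 (SE, limma adjusted p = 0.00246), so that SHR was 2.18-fold lower on the scale of log2(FPKM + 1). Psmb9 passed the test under all 15 alternatives, with adjusted p from 9.57e-08 to 0.0111. Without WKY replicate 2, its highest library, the log2 fold change was -0.97.

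The standard partner Psmb6 (ENSRNOG00000019551) did not pass the test. It measured 94.47, 114.66, 86.42 and 117.93 FPKM across WKY replicates and 99.85, 90.21, 66.81 and 64.92 FPKM across SHR replicates. Its strains overlapped, with SHR replicates 1 and 2 inside the WKY range. The log2 fold change was -0.37 ± 0.16 (limma adjusted p = 0.154).

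Psmb8 (ENSRNOG00000000456), the immunoproteasome subunit of the chymotrypsin-like site, was at nearly the same level in both strains. The WKY libraries were at 86.39, 103.04, 70.93 and 90.93 FPKM and the SHR libraries at 83.34, 76.09, 94.56 and 71.72 FPKM. All SHR values lay within the WKY range. The log2 fold change was -0.10 ± 0.13 (limma adjusted p = 0.657). Its partner Psmb5 (ENSRNOG00000013386) measured 116.32, 115.41, 100.71 and 145.86 FPKM across WKY replicates and 104.79, 105.26, 87.07 and 84.66 FPKM across SHR replicates, with an adjusted p of 0.144 by limma.

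Psmb10 (ENSRNOG00000019494), which replaces Psmb7 at the trypsin-like site, lay between Psmb9 and Psmb8 in its difference. It measured 126.89, 152.05, 97.12 and 120.05 FPKM across WKY replicates and 108.22, 89.88, 100.98 and 83.98 FPKM across SHR replicates, a log2 fold change of -0.36 ± 0.14 (limma adjusted p = 0.123). Only WKY replicate 3 lay inside the SHR range, and leaving it out gave a limma adjusted p of 0.032. This was the only 1 of 15 alternatives in which Psmb10 passed. Without WKY replicate 2 the limma adjusted p was 0.315. Psmb7 (ENSRNOG00000011732), the most abundant catalytic gene, measured 212.31, 197.91, 147.88 and 185.3 FPKM across WKY replicates and 150.32, 156.78, 127.02 and 173.72 FPKM across SHR replicates. Its log2 fold change was -0.28 ± 0.14 (limma adjusted p = 0.198).

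**Figure D2:**
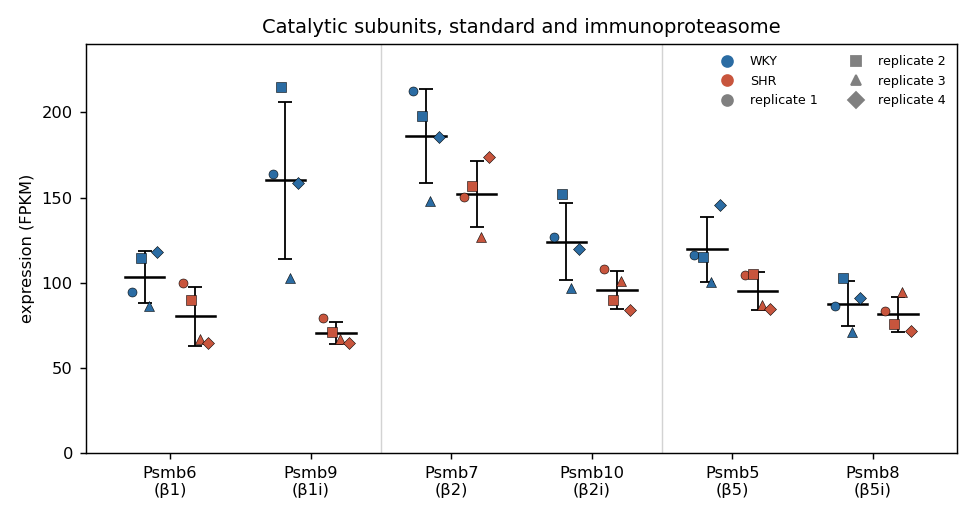
FPKM of the 6 catalytic subunit genes in each library, with the standard subunit left of the immunoproteasome subunit of the same site. Symbols stand for replicates, and black lines for the mean and SD of 4 libraries. The strains are apart for Psmb9, with SHR at 64.6 to 79.57 FPKM and WKY at 102.64 to 214.8 FPKM, and overlap for the other genes.

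The balance of immunoproteasome and standard transcripts was compared within each library, which cancels a difference in scaling between libraries. Psmb9 made up 63.4%, 65.2%, 54.3% and 57.3% of the summed FPKM of Psmb9 and Psmb6 in WKY replicates 1 to 4, and 44.3%, 44.0%, 50.1% and 49.9% in SHR. In FPKM, Psmb9 thus exceeded Psmb6 in all 4 WKY libraries, while the SHR libraries lay near or below parity. Where parity falls rests on effective lengths of 673 bases for Psmb9 and 479 bases for Psmb6. The authors' mean CPM, not scaled by length, was 106.3 for Psmb9 and 48.4 for Psmb6 in WKY. In SHR it was 48.8 and 39.6, so that Psmb9 was the higher in both strains by that measure. The log2 ratio of the pair was 0.59 ± 0.31 in WKY and -0.17 ± 0.19 in SHR (SD, n = 4 each). The difference of -0.76 had an exact permutation p of 0.0286 (two-sided), the smallest that 4 libraries against 4 can give. Adjusted over the 3 pairs compared it was 0.0857, which does not pass 0.05.

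The other pairs showed no such separation. Psmb8 was 42.4% ± 3.65 of its pair in WKY and 46.0% ± 4.32 in SHR (SD, n = 4 each), a log2 ratio higher by 0.21 in SHR (exact permutation p = 0.257, adjusted 0.386). Psmb10 was 39.95% ± 2.53 of its pair in WKY and 38.8% ± 5.28 in SHR, with a difference of -0.07 on the log2 scale (exact permutation p = 0.686, adjusted 0.686). The strains overlapped for both pairs. Between the immunoproteasome genes themselves, the FPKM of Psmb9 was 1.45 to 2.08 times that of Psmb8 in WKY and 0.709 to 0.955 times in SHR. That ratio was not tested.

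**Figure D3:**
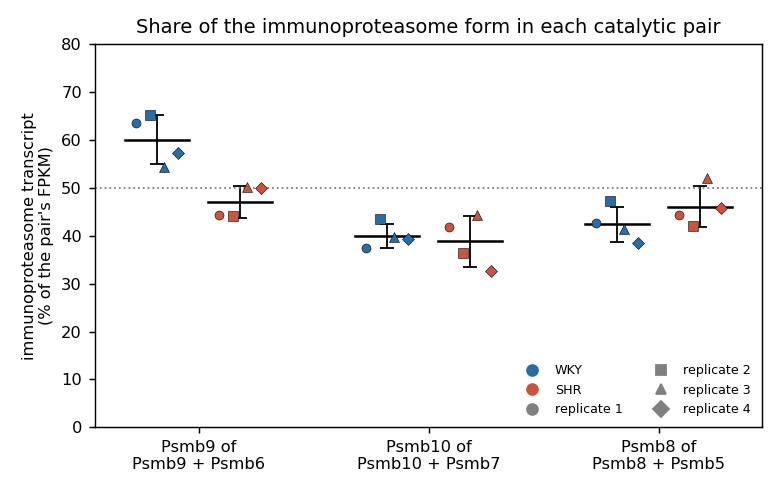
Immunoproteasome transcript as a percentage of the summed FPKM of each catalytic pair, by library, with mean and SD of 4 libraries. The dotted line marks equal FPKM of both forms, a level that depends on the transcript lengths used. Psmb9 takes 54.3% to 65.2% in WKY and 44.0% to 50.1% in SHR, and the strains overlap for the other 2 pairs.

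The PA28 activator opens the core for short peptides, and its alpha and beta subunits, Psme1 and Psme2, are induced by interferon gamma. Psme1 (ENSRNOG00000019041) measured 243.85, 272.91, 205.4 and 251.77 FPKM across WKY replicates and 169.95, 165.55, 172.32 and 168.39 FPKM across SHR replicates. The strains did not overlap, and the SHR libraries lay close together. Psme1 fell by 0.52 ± 0.11 on the log2 scale (SE, limma adjusted p = 0.0103) and kept its call under all 15 alternatives, with adjusted p from 0.00309 to 0.0391.

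Psme2 (ENSRNOG00000019246) measured 152.54, 177.77, 126.91 and 151.29 FPKM across WKY replicates and 113.15, 102.4, 108.84 and 125.34 FPKM across SHR replicates. The lowest WKY and the highest SHR library differed by little. Its log2 fold change was -0.43 ± 0.12 (limma adjusted p = 0.0414). Psme2 missed the threshold in 6 of 8 fits that leave out a library and after quantile normalization or median centring. Psme1 stood at 1.54 to 1.66 times the FPKM of Psme2 in WKY and at 1.34 to 1.62 times in SHR, so their ratio overlapped between strains.

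The other activators did not pass the test. Psme3, the nuclear PA28 gamma subunit, was at 37.2 ± 6.63 FPKM for WKY and 37.5 ± 4.88 FPKM for SHR (SD, n = 4 each; limma adjusted p = 0.948). Psme4, which encodes the large activator PA200, was at 37.7 ± 4.72 and 42.5 ± 8.04 FPKM (limma adjusted p = 0.519) and had the highest log2 fold change of the members at 0.16. Psmf1, known as the inhibitor PI31, was at 18.8 ± 3.10 and 18.7 ± 2.15 FPKM. These 3 genes were the members without a negative log2 fold change, and the sign of Psme3 and Psmf1 turned in some fits that left out a library.

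In the alpha ring, which forms the gate of the core, the log2 fold changes of all 7 genes were negative. By limma's adjusted p 1 passed, where 7.48% of all tested genes were lower. At an unadjusted p under 0.05 all 7 were lower, beside 18.4% of all tested genes. Of the 14 alpha and beta subunits of the standard core, 12 were lower by that rule. Psma4 (ENSRNOG00000013493) measured 128.61, 150.12, 97.94 and 131.27 FPKM across WKY replicates and 94.73, 87.19, 84.43 and 98.7 FPKM across SHR replicates. SHR replicate 4 lay just above WKY replicate 3. Psma4 fell by 0.46 ± 0.13 on the log2 scale (limma adjusted p = 0.0437) and missed the threshold in 6 of 8 fits that leave out a library and after quantile normalization or median centring. The median of the ring was -0.34, with a range of -0.46 to -0.30. Psma2, at 284.9 ± 40.2 FPKM for WKY and 226.8 ± 33.5 FPKM for SHR (SD, n = 4 each), did not pass (limma adjusted p = 0.146), nor did Psma3 (0.155).

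The 4 beta subunits without a catalytic site had a median log2 fold change of -0.34, and 0 passed limma's test, with 3 lower at an unadjusted p under 0.05 (18.4% of all tested genes) and 0 by the authors' deposited q-values. Psmb3, the lowest of them in p, measured 174.74, 192.78, 155.16 and 211.58 FPKM across WKY replicates and 153.08, 145.3, 131.85 and 135.11 FPKM across SHR replicates (limma adjusted p = 0.0644). Its strains were apart by a narrow margin, between WKY replicate 3 and SHR replicate 1. Psmb1 had the highest mean of this group, at 198.2 ± 21.0 and 159.3 ± 14.1 FPKM (limma adjusted p = 0.102), and Psmb2 the lowest, at 87.4 ± 13.6 and 72.6 ± 10.6 FPKM (limma adjusted p = 0.249). For the 3 standard catalytic genes the median was -0.32.

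Among the chaperones that assemble the core, 1 of 4 passed, where 7.48% of all tested genes were lower. At an unadjusted p under 0.05, 2 were lower, beside 18.4% of all tested genes. Psmg2 (ENSRNOG00000017729), which pairs with Psmg1 to build the alpha ring, measured 21.15, 25.69, 17.11 and 22.68 FPKM across WKY replicates and 15.8, 16.22, 15.89 and 14.55 FPKM across SHR replicates. The strains did not overlap. Psmg2 fell by 0.43 ± 0.13 on the log2 scale (limma adjusted p = 0.0451), and its call was lost in 7 of 8 fits that leave out a library and after quantile normalization or median centring. Its partner Psmg1 was at 44.3 ± 7.67 FPKM for WKY and 34.9 ± 3.78 FPKM for SHR and did not pass (limma adjusted p = 0.157). Pomp, a further maturation factor of the core, was at 17.1 ± 3.91 and 13.3 ± 1.58 FPKM (limma adjusted p = 0.191).

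Of the 17 subunits of the 19S cap that fit the rule, 0 passed limma's test. The log2 fold changes of these 17 were all negative. At an unadjusted p under 0.05, 3 were lower, near the 18.4% of all tested genes, and by the authors' deposited q-values 0 were. The 6 ATPases, which unfold the substrate, had a median of -0.22. Psmc3, with the highest level of them, was at 117.7 ± 14.4 FPKM for WKY and 95.5 ± 8.27 FPKM for SHR (SD, n = 4 each; limma adjusted p = 0.134), and Psmc6, with the lowest, at 33.4 ± 5.41 and 28.8 ± 2.86 FPKM. The 11 other subunits under the rule had a median of -0.18, and Sem1 and Adrm1, outside it, are given below. Psmd14, the enzyme that cuts ubiquitin off the substrate, was at 57.6 ± 10.2 and 45.7 ± 6.13 FPKM (limma adjusted p = 0.165). The scaffold subunit Psmd2 was at 88.7 ± 8.42 and 78.0 ± 7.95 FPKM, and the lid subunit Psmd12 at 43.5 ± 6.64 and 39.7 ± 4.93 FPKM. Of the 3 helpers of base assembly 0 passed limma's test (1 lower at an unadjusted p under 0.05, beside 18.4% of all tested genes, and 0 by the authors' deposited q-values), with Psmd5 at 29.4 ± 2.51 and 24.7 ± 2.29 FPKM and Psmd10 at 7.05 ± 0.716 and 5.88 ± 0.487 FPKM. Psmc3ip was at 2.99 ± 0.802 and 2.95 ± 0.730 FPKM.

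The WKY libraries differed among themselves in these genes. WKY replicate 3 was the lowest WKY library for 44 of 47 members, where it was the lowest for 39.7% of all tested genes, and WKY replicate 2 was the highest for 31, where it was the highest for 36.6% of all tested genes. The summed FPKM of the 47 genes was 4478.07, 4952.21, 3567.9 and 4582.96 in WKY and 3525.66, 3430.2, 3383.35 and 3639.92 in SHR. WKY replicate 3 thus lay inside the SHR range and the other WKY libraries above it. As a share of all FPKM of the library, the sums were 0.467%, 0.518%, 0.357% and 0.430% in WKY and 0.357% to 0.410% in SHR.

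Without WKY replicate 3, 17 members were lower and 0 higher, beside 10.9% of all tested genes lower and 4.07% higher in that fit. The added calls were Psma1, Psma3, Psma5, Psma6, Psma7, Psmb1, Psmb3, Psmb4, Psmb10, Psmc3, Psmd6 and Psmg1, mostly genes of the core, and the 5 calls above were kept. Their median log2 fold change over 47 members was then -0.36, and every SHR value lay below the 3 remaining WKY values for 30 members, beside 21.0% of all tested genes. When any 1 of WKY replicates 1, 2 and 4 or SHR replicates 1, 2 and 3 was left out, 2 members were called, Psmb9 and Psme1. Leaving out SHR replicate 4 gave 4 calls.

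**Figure D4:**
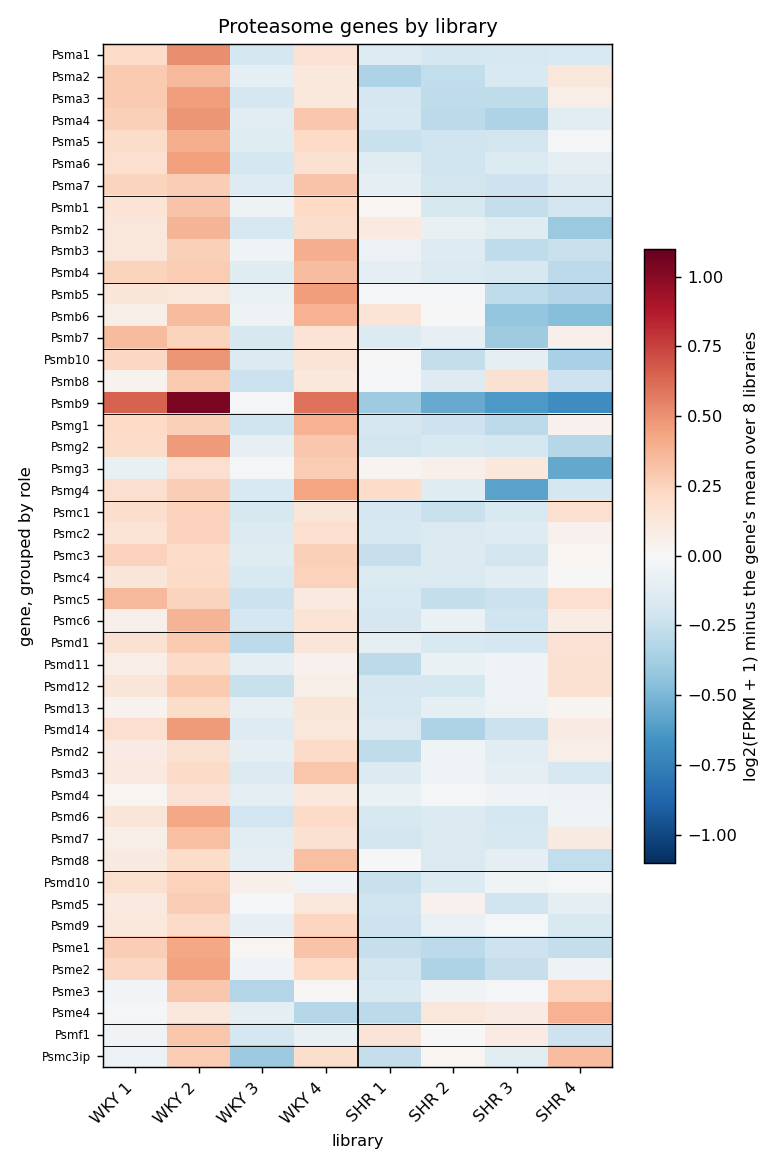
Log2(FPKM + 1) of each gene minus its mean over 8 libraries, with genes in rows by role and libraries in columns. WKY replicate 3 is the lowest WKY library for 44 of 47 genes, and Psmb9 has the widest range.

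In the annotation of the black rat assembly Rrattus_CSIRO_v1, Psmb8, Tap1 and Psmb9 are neighbours in the histocompatibility complex with only pseudogenes between them. The 3 genes did not differ alike between the strains. Tap1 (ENSRNOG00000000457) measured 19.69, 53.11, 15.58 and 16.95 FPKM across WKY replicates and 7.83, 10.65, 8.82 and 9.47 FPKM across SHR replicates. The strains did not overlap for Tap1, as for Psmb9 on its other side. WKY replicate 2 stood far above the rest. The log2 fold change of -1.24 ± 0.35 missed the threshold (limma adjusted p = 0.056), and with WKY replicate 2 left out it was -0.85 ± 0.14 and passed (limma adjusted p = 0.00282). Tap1 also passed without WKY replicate 3 (0.0334), after quantile normalization (0.0426) or median centring (0.0447), with a pseudocount of 0.1 (0.0487) and by the authors' deposited q-value (1.80e-06). In 6 of 8 fits that left out a library it did not. Tap2, the other subunit of the transporter, was at 30.3 ± 4.37 FPKM for WKY and 29.5 ± 2.88 FPKM for SHR (SD, n = 4 each; limma adjusted p = 0.898).

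The genes of the PA28 activator lie near each other too, close to Irf9, which encodes the DNA-binding part of an interferon-induced factor. The genes that lie among and beside them were looked up after these values were seen. In that assembly the order is Irf9, Rnf31, Psme2, a gene without a listed value, Emc9 and Psme1. Irf9 fell from 26.2 ± 7.00 to 13.3 ± 1.14 FPKM (SD, n = 4 each; limma adjusted p = 0.00312). Rnf31, a ubiquitin ligase subunit, was at 17.0 ± 0.857 and 16.6 ± 1.45 FPKM (limma adjusted p = 0.859), and Emc9 at 1.34 ± 0.192 and 1.19 ± 0.050 FPKM (limma adjusted p = 0.604). Rnf31 and Emc9, which lie between them, thus did not pass while Irf9, Psme2 and Psme1 did. Emc9 lay near the filter of 1 FPKM, where log2(FPKM + 1) understates changes, so its result says little. The call of Psme2 depended on the libraries kept, as given above.

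Of 11 genes of class I peptide loading, 2 were lower and 0 higher, where 7.48% of all tested genes were lower and 3.40% higher. Their median log2 fold change was -0.15. At an unadjusted p under 0.05, 5 were lower, beside 18.4% of all tested genes. By the authors' deposited q-values 3 were lower, beside 9.59% of all genes in that table. Nlrc5, the transactivator of class I genes, measured 2.12, 3.5, 1.51 and 1.47 FPKM across WKY replicates and 0.43, 0.46, 0.59 and 0.59 FPKM across SHR replicates. The strains did not overlap, at low levels, and Nlrc5 fell by 1.01 ± 0.17 on the log2 scale (limma adjusted p = 0.00315). At these levels the size depends on the pseudocount. It was -1.79 with 0.1 and -0.37 with 5, and the authors' deposited table gives -2.02. Pdia3, a disulfide isomerase of the loading complex, fell from 521.1 ± 73.2 to 364.5 ± 49.6 FPKM (limma adjusted p = 0.0299, lost in 6 of 8 fits that leave out a library and, at 0.0795, after quantile normalization). Tapbp, the tapasin that bridges transporter and class I molecule, was at 103.4 ± 13.7 and 120.1 ± 22.4 FPKM (limma adjusted p = 0.395).

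Of 15 tested genes of the interferon gamma axis, 3 were lower and 0 higher, where 7.48% of all tested genes were lower and 3.40% higher. Their median log2 fold change was -0.32. At an unadjusted p under 0.05, 3 were lower, near the 18.4% of all tested genes. Besides Irf9, the transcription factor gene Irf1, which acts on Psmb9 and Tap1 in human and mouse, measured 97.37, 197.88, 86.8 and 75.84 FPKM across WKY replicates and 63.55, 52.95, 47.45 and 43.37 FPKM across SHR replicates. It fell by 1.03 ± 0.27 on the log2 scale (limma adjusted p = 0.037, lost in 4 of 8 fits that leave out a library). The chemokine gene Cxcl11 fell from 13.9 ± 3.38 to 8.17 ± 2.85 FPKM (limma adjusted p = 0.0449, lost in 6 of 8 such fits).

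WKY replicate 2 stood highest of the WKY libraries for 12 of these 15 genes, where it was the highest for 36.6% of all tested genes. Relative to the mean of all libraries, the 15 genes averaged 0.82 on the log2 scale in WKY replicate 2, -0.13 to 0.05 in the other WKY libraries and -0.27 to -0.09 in SHR. Psmb9, Psme1 and Psme2 were at their highest in that same library, which was the highest WKY library for 31 of the 47 members. The part of this library's interferon-response level in the strain difference was not tested beyond the values without it, under which Psmb9, Psme1, Irf1 and Tap1 passed and Psme2 did not (limma adjusted p = 0.122).

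**Figure D5:**
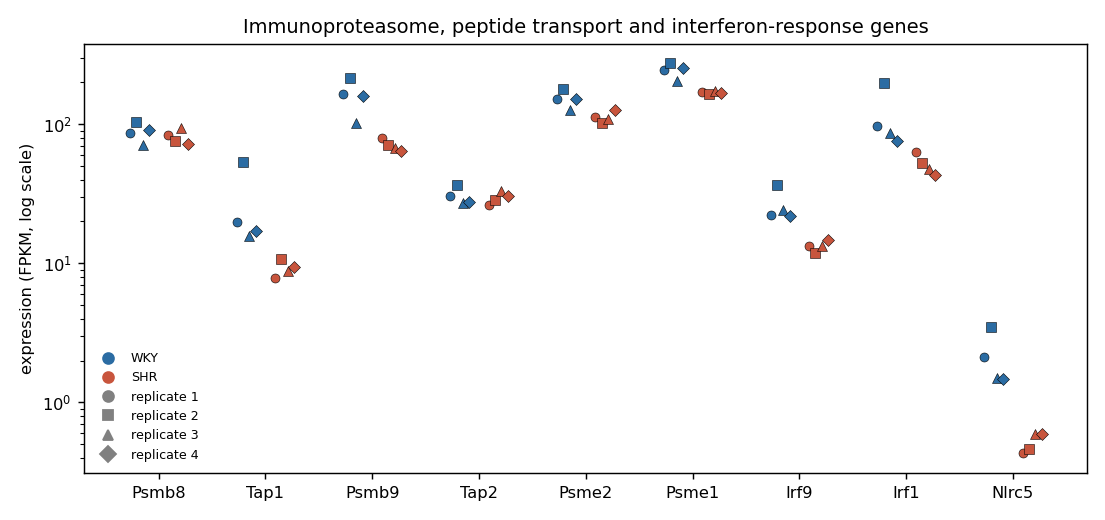
FPKM on a log scale in each library for the immunoproteasome, activator, transporter and interferon-response genes, with symbols for replicates. WKY replicate 2 is the highest WKY library for each gene shown, and the strains are apart for Tap1, Psmb9, Psme2, Psme1, Irf9, Irf1 and Nlrc5 and overlap for Psmb8 and Tap2.

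A further 17 factors of the proteasome, outside the rule, included ubiquitin shuttles, the receptor Adrm1 and the factors Nfe2l1 and Nfe2l2 that drive proteasome genes. Of these 17, 0 passed limma's test in either direction. At an unadjusted p under 0.05, 3 were lower and 0 higher, near the 18.4% of all tested genes that were lower, and by the authors' deposited q-values 0 passed. Their median log2 fold change was -0.13. Sem1 and Adrm1, both subunits of the 19S cap, had log2 fold changes of 0.13 and -0.25 (limma adjusted p = 0.482 and 0.158). Of 12 genes of ubiquitin and its activating and conjugating enzymes, 1 was lower, near the 7.48% of all tested genes. This was Ube2l6, named after its value was seen, the interferon-induced conjugating enzyme of the ubiquitin-like protein Isg15. It was at 18.6 ± 3.16 and 13.1 ± 1.32 FPKM (limma adjusted p = 0.0374, lost in 6 of 8 fits that leave out a library).

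Lymphocytes carry the immunoproteasome as their usual form, and several of their marker genes fell in SHR. From a list of 13 T and natural killer cell markers 8 were listed and 7 were tested. Of the 7 tested, 4 were lower, beside 7.48% of all tested genes. At an unadjusted p under 0.05 all 7 were lower, beside 18.4% of all tested genes. By the authors' deposited q-values all 7 were lower too, beside 9.59% of all genes in that table. Their median log2 fold change was -1.23, and that of all tested genes -0.07. The summed level of the 8 was 71.67, 37.79, 133.38 and 87.06 FPKM in WKY and 12.44 to 23.0 FPKM in SHR, with none at 0 in any library. In WKY this sum was highest in replicate 3, the lowest WKY library for 44 of 47 members, Psmb9 among them. It was lowest in replicate 2, the highest WKY library for 31 members, Psmb9 again among them. In bulk RNA, fewer cells of a type and less RNA per cell cannot be told apart, and the part of these cells in the strain difference was not tested. Of 9 markers of macrophages and dendritic cells 5 were listed, at a sum of 89.6 to 100.4 FPKM in WKY and 130.4 to 142.6 FPKM in SHR. Most of that sum was Cd14, the coreceptor for bacterial lipopolysaccharide, which was higher in SHR, at 84.8 to 90.3 FPKM in WKY and 127.1 to 136.5 FPKM in SHR. The other 4 summed to 4.28 to 12.3 FPKM in WKY and 3.37 to 7.72 FPKM in SHR. Among them Ptprc, a protein of white blood cells, lymphocytes included, was lower in SHR. Of 8 markers of stroma and endothelium 2 were listed, at a sum of 4.71 to 17.8 FPKM in WKY and 1.93 to 8.39 FPKM in SHR. The 10 listed epithelial markers summed to 27555 to 37171 FPKM in WKY and 32974 to 34890 FPKM in SHR. Most of that sum was Car1, and the other 9 summed to 12882.5 to 14862.8 FPKM in WKY and 12281.1 to 14703.1 FPKM in SHR. By limma's adjusted p 1 of the 10 was lower, Krt18, and 0 were higher, beside 7.48% and 3.40% of all tested genes. At an unadjusted p under 0.05, 2 were lower and 2 higher, the latter Krt20 and Slc26a3, beside 18.4% and 9.01% of all tested genes.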

How the data were processed

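The 8 libraries, 4 per strain, were directional and paired-end and made from poly(A) RNA, per the labels' protocols. The submitters' processing notes list STAR, Trimmomatic and FastQC, with no version and no role. No source used here gives the genome build, the annotation, how fragments were counted or which test the authors ran. The deposited values of each library were treated as FPKM, a unit no header names. It was inferred from 10778 genes of at least 1 in both strains. The authors' mean CPM over the mean value had a median of 1.88 in WKY (quartiles 1.16 and 3.01), as a length in kilobases would, and was 0.948 to 1.00 times the ratio in SHR for 90% of genes. The library sums differ, unlike those of TPM. The deposited table also gives the mean CPM per strain, and for SHR against WKY the p-value, q-value and log2 fold change, per the file headers. The other tables repeat rows of it and were not used.

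The test covered the 11069 genes that reached 1 FPKM in 4 or more libraries, on log2(FPKM + 1), which understates changes of low genes, with limma 3.58.1 in R 4.3.3 (trend and robust settings, two-sided), adjusted over all of them with a threshold of 0.05. Ratios of catalytic pairs were tested by exact permutation (scipy 1.17.1). Effective length is the authors' mean CPM over mean FPKM. On simulated data for SHR against WKY (11069 genes, 200 changed), limma called 43.5% of the 1.5-fold changes, 84.4% of the 2-fold and 98.5% of the 4-fold ones, with 9 false among 159 calls. Values were drawn independently for each gene, unlike in real libraries. Alternatives were pseudocounts of 0.1 and 5, no filter, quantile normalization, median centring, a replicate block, leaving out each library, and the authors' deposited q-values.

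No reads can be recovered from rounded FPKM, so no counting interval is given. Whether counting used strand is not stated, so overlapping genes cannot be told apart. The members and lists were chosen with earlier results of these data known. Named genes are all called members, the 6 catalytic genes, Psme1 and Psme2, the highest, lowest and most changed gene of each role, up to 6 called genes of each of 3 context lists, and Tap1, Tap2, Tapbp, Nlrc5 and Irf1 of class I loading and interferon response. A further gene of that rule is not reported here. Psme4, Pomp, Ube2l6, Sem1, Adrm1 and the genes beside Psme1 and Psme2 were added after their values were seen. Gene order was taken from RefSeq's Rrattus_CSIRO_v1 annotation of the black rat, in which all 47 symbols were found. The labels name Rattus rattus, while gene identifiers begin with ENSRNOG, used for the brown rat. The gene order was thus read from another species than the identifiers point to, and was not checked in the brown rat.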

Additional observations from a re-analysis of the deposited data

Results flagged for a closer look

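Of 122 groups of 4 libraries examined, 6 held a library far from the other 3, about the 1 in 20 that chance gives. In SHR replicate 4, 3 genes of the 19S cap stood high. Psmc1 was at 96 FPKM against 71.66 to 75.67 FPKM in the other SHR libraries, Psmc2 at 68.09 against 58.35 to 59.61 FPKM, and Psmd7 at 51.58 against 41.57 to 43.05 FPKM. The chaperone gene Psmg3 stood low in the same library, at 12.85 FPKM against 19.88 to 21.17 FPKM. In WKY replicate 2, Tap1 was at 53.11 FPKM against 15.58 to 19.69 FPKM in the other WKY libraries, and Irf9 at 36.6 against 21.94 to 24.28 FPKM.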

How the results depend on the processing

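The count of 5 members lower in SHR was 2 after quantile normalization, 2 after median centring, 3 with the replicate number as a block and 2 to 17 when 1 library was left out, and 0 were higher in any of these fits. Psmb9 and Psme1 were called in all 15 alternatives, and Psma4 in 7, Psme2 in 6 and Psmg2 in 5. The count over all tested genes was 499 to 1209 lower (499 without SHR replicate 3, 506 without WKY replicate 4) and 215 to 583 higher without 1 library (249 without WKY replicate 1, 221 without WKY replicate 4, 583 without SHR replicate 1, 229 without SHR replicate 2, 215 without SHR replicate 3). It was 642 higher after quantile normalization and 675 higher by the authors' deposited q-values.

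Same-numbered libraries deviated together in 1 of 4 pairs (correlations of -0.105, -0.039, 0.463 and -0.29 for numbers 1 to 4). Only WKY replicate 3 correlated best with the SHR library of its own number. No label says that the numbers pair the samples, and these correlations cannot settle whether they do. With the number as a block Psme2 (limma adjusted p = 0.0545), Psmg2 (0.0570) and Ube2l6 (0.0553) missed the threshold and Tap1 passed it (0.0142). The Psmb9 to Psmb6 log2 ratio kept its difference of -0.76 with the replicate block (exact p = 0.125) and ranged from -0.87 to -0.65 without 1 library (smallest p 0.0571). Neither design can reach 0.05. The difference of the Psmb10 to Psmb7 ratio ran from -0.18 to 0.053 without 1 library.

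Genes close to 0 changed sign without passing the test. Psmc3ip was at 0.098 after quantile normalization, 0.037 after median centring, 0.0079 in the authors' deposited table and -0.14 to 0.083 without 1 library. Psmf1 was at -0.00040 with a pseudocount of 5 and -0.063 to 0.103 without 1 library, and Psme3 at -0.085 to 0.119. Tap2 was at 0.025 after quantile normalization, 0.017 after median centring and -0.083 to 0.060 without 1 library. The causes were not tested. Reads per gene are unknown, which limits what can be said of low values such as those of Nlrc5, Emc9 and Psmd10. The authors' mean CPM was 11.6 in WKY and 2.87 in SHR for Nlrc5, and 1.96 and 1.73 for Psmd10.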
